A study of Mus musculus with 15 samples.

Results

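The genes described here are 10 members of the BCL2 family, the proteins that decide whether a cell starts the mitochondrial pathway of apoptosis. They were taken by gene symbol and all 10 were listed in both deposited tables, which hold 11262 genes for CD8+ T cells and 11211 genes for cytotoxic T lymphocytes (CTL). The members fall into 3 anti-apoptotic genes (Bcl2, Bcl2l1 and Mcl1), 2 effectors (Bax and Bak1) and 5 BH3-only genes (Bcl2l11, Bbc3, Pmaip1, Bid and Bad).

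All 15 RNA sequencing libraries came from LCMV-P14 TCR transgenic mice, whose CD8+ T cells carry a single TCR for a peptide of the LCMV glycoprotein, so each result is for T cells of 1 specificity. The CD8+ set has 3 groups of 3 biological replicates: naïve cells sorted ex vivo, cells activated for 24 h with 100 ng/ml peptide in medium that also held IL-12 at 2 ng/ml and IL-2 at 20 ng/ml (TCR activated), and cells activated in the same way with 10 µM IC87114, an inhibitor of PI3K p110δ (PI3Kdi). Each of those replicates was a pool of cells from 3 female mice that was divided between the conditions. After culture, the activated cells with or without PI3Kdi were sorted as live CD8+ cells. DMSO was the vehicle control for the inhibitor. The CTL set has 2 groups of 3 replicates. The cells were activated for 48 h and cultured for 4 days in 20 ng/ml IL-2, then on day 6 washed and kept for 24 h with 20 ng/ml IL-2 or without IL-2. For the CTL, the number of mice per replicate, the age of the mice and any removal of dead cells are not given in the sources used here, so the p-values below measure the spread between these cultures. Levels are FPKM (fragments counted per gene, scaled for exon length and library size), which can be compared between genes because they are per length. The 2 tables were normalised separately, so levels in CD8+ cells and CTL are only set side by side.

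BCL2, BCL-XL (the product of Bcl2l1) and MCL1 hold cells alive by binding the pro-apoptotic members. When BAX and BAK1 are freed they form pores in the outer mitochondrial membrane, cytochrome c leaves the mitochondria and caspases are activated. The BH3-only proteins start this step: BIM (Bcl2l11) and PUMA (Bbc3) bind all of the main anti-apoptotic proteins, BAD binds BCL2 and BCL-XL, NOXA (Pmaip1) binds MCL1, and BID links death receptors to the mitochondria. T cells depend on cytokines such as IL-2 and IL-7 to keep this balance on the side of survival, and BIM is a well known mediator of T cell death when cytokine is withdrawn. FOXO factors, which are held in the cytosol while PI3K and AKT signal, and STAT5, which acts below the IL-2 receptor, are known regulators of members of the family.

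The mRNAs that rose most among the members after IL-2 withdrawal were Bcl2l11 (chromosome 2, 128126038 to 128162547, + strand) and Bbc3 (chromosome 7, 16308393 to 16318205, + strand; both in the mm10 build, gene bounds from GENCODE). Their promoters are shown because, among the 9 members whose promoters were searched, only these 2 had a match to the FOXO motif. For these 9 members, RefSeq windows of 300 bases (250 before and 50 after a transcription start) were searched, 15 in all. Their build, GRCm38.p6, has the chromosome sequences of mm10. The promoter of Pmaip1 was left out of the search. The FOXO motif GTAAACA, on either strand, was in 2 of these 15 windows and in 3.65% of all 32851 windows. The 250 bases before the start are given here, chr2:128125788-128126037 for Bcl2l11 and chr7:16310011-16310260 for Bbc3, both on the + strand, with the match in capitals.
Bcl2l11: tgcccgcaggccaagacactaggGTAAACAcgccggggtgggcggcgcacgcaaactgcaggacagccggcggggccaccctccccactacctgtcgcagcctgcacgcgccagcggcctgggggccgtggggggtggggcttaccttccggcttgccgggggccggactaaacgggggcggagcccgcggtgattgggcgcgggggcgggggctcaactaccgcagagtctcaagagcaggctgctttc
Bbc3: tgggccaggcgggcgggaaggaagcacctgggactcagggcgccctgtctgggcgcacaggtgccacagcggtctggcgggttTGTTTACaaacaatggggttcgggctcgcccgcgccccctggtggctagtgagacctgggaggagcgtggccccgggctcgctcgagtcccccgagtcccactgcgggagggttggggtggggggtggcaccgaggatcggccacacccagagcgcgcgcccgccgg
The match lay at -227 from the start on the + strand in Bcl2l11 and at -167 on the - strand in Bbc3, where the letters read as the reverse complement. The other 2 windows of Bbc3 and the other window of Bcl2l11 held no match. The STAT5 motif TTCNNNGAA, on either strand, was in 0 of the 15 windows and in 8.30% of all windows. A match is a description of the letters, and binding was not measured in these samples.

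IL-2 withdrawal lowered 3 members, Bcl2l1, Bak1 and Bid, and raised 2, Bcl2l11 and Bbc3. A gene was called when its adjusted p was under 0.05 and its fold change was above 2 or below 0.5, and over all genes 14.3% were called higher and 13.9% lower without IL-2. All 10 members had an adjusted p under 0.05, as did 71.9% of all genes. The median log2 fold change was -0.49 over the members and 0.00 over all genes. Each CTL library is RNA from many cells together, in which fewer cells of a type and less RNA per cell cannot be told apart.

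**Figure D1:**
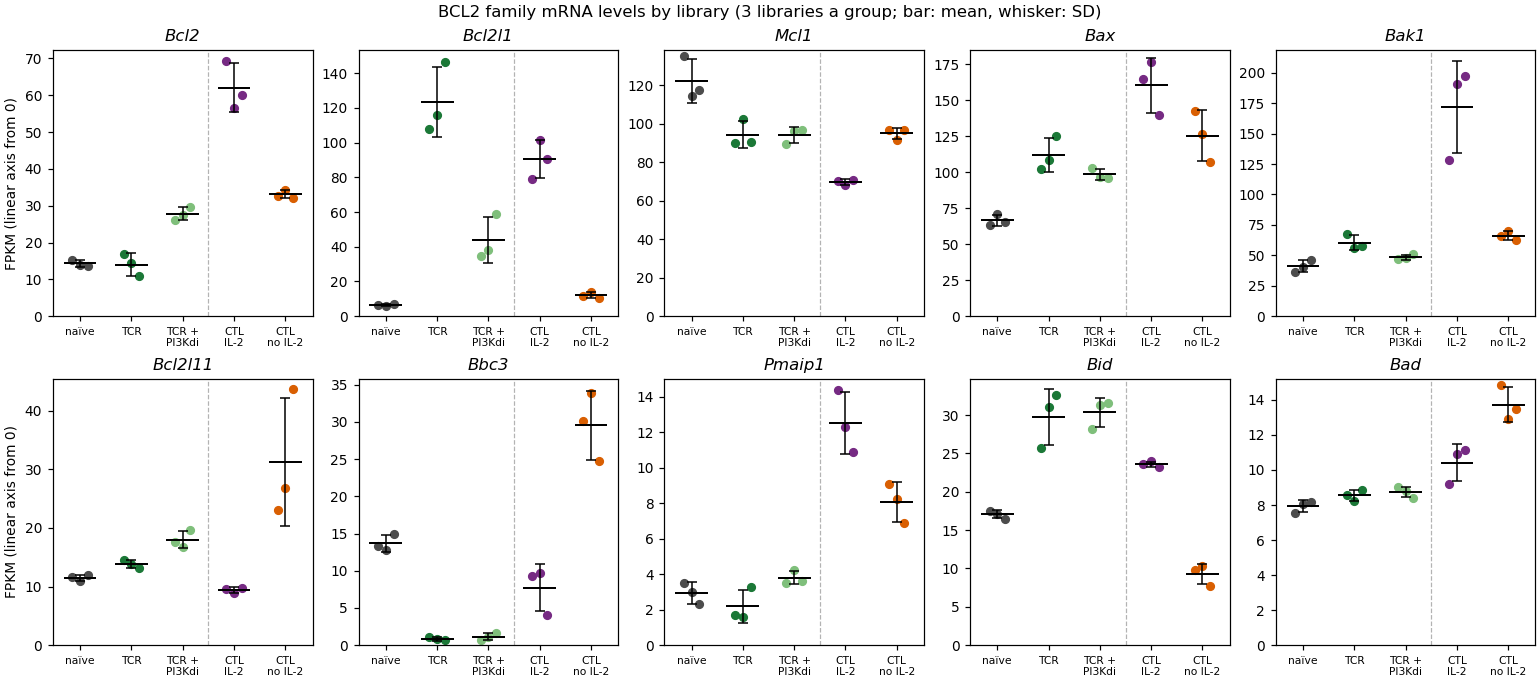
FPKM of each of the 10 members (y axis, linear from 0, scaled for each gene) in the 15 libraries, 3 points a group, with the mean as a bar and the SD as a whisker. The dashed line separates the 2 tables, which were normalised separately. Bcl2l1 was at 79.29 to 101.36 in CTL with IL-2 and at 10.66 to 14.06 without, while Bcl2l11 went from 8.88 to 9.81 with IL-2 to between 23.12 and 43.72 without.

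Of the anti-apoptotic genes, Bcl2l1 (chromosome 2, 152780668 to 152831728, - strand) had the largest fold change. It was at 79.29, 101.36 and 90.61 FPKM in the 3 libraries with IL-2 and at 11.67, 14.06 and 10.66 FPKM in those without. The groups lay far apart, and Bcl2l1 fell by 2.89 on the log2 scale (SE 0.12, adjusted p = 2.2e-07). Bcl2 was at 69.39, 56.46 and 60.16 FPKM with IL-2 and at 32.76, 34.32 and 32.22 FPKM without. These groups did not overlap either, with a log2 fold change of -0.90 (SE 0.09, adjusted p = 1.8e-05), which is short of the 2-fold limit. Mcl1, whose protein turns over within hours, went the other way. It was at 70.16, 68.06 and 70.81 FPKM with IL-2 and at 96.58, 91.77 and 96.79 FPKM without, again with no overlap. The log2 fold change of Mcl1 was 0.45 (SE 0.07, adjusted p = 0.00026), below the 2-fold limit.

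Both pore-forming effectors were lower without IL-2, but only Bak1 (chromosome 17, 27019810 to 27029009, - strand) was called. It was at 128.37, 190.60 and 197.16 FPKM with IL-2 and at 66.03, 70.15 and 62.51 FPKM without. The lowest library with IL-2 was still above every library without it, and Bak1 fell by 1.35 on the log2 scale (SE 0.15, adjusted p = 3.2e-05). Bax was at 164.60, 176.69 and 139.66 FPKM with IL-2 and at 142.54, 126.46 and 107.06 FPKM without. The Bax groups overlapped, because replicate 1 without IL-2 was above replicate 3 with IL-2. Its log2 fold change was -0.36 (SE 0.12, adjusted p = 0.024).

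The BH3-only genes split. Bcl2l11, which encodes BIM, was at 9.60, 8.88 and 9.81 FPKM with IL-2 and at 23.12, 26.87 and 43.72 FPKM without. All libraries without IL-2 were above all libraries with it, replicate 3 by the widest margin, and Bcl2l11 rose by 1.66 on the log2 scale (SE 0.20, adjusted p = 5.5e-05). Bbc3, which encodes PUMA, was at 9.35, 9.70 and 4.07 FPKM with IL-2 and at 30.06, 33.82 and 24.70 FPKM without. In both groups replicate 3 was the lowest library, the groups were apart, and Bbc3 rose by 2.01 (SE 0.29, adjusted p = 0.00018). The promoter sequences printed above belong to these 2 genes, and a part of their FOXO motif in these changes was not tested.

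Bid (chromosome 6, 120891930 to 120916853, - strand) was the only BH3-only gene called lower. It was at 23.56, 23.95 and 23.26 FPKM with IL-2 and at 9.75, 10.30 and 7.76 FPKM without, a fall of 1.35 on the log2 scale (SE 0.11, adjusted p = 6e-06), and the groups did not overlap. Pmaip1, which encodes NOXA, was at 14.36, 12.30 and 10.88 FPKM with IL-2 and at 9.10, 8.22 and 6.87 FPKM without. Its groups were apart with a log2 fold change of -0.63 (SE 0.14, adjusted p = 0.0027). Bad was at 9.20, 10.89 and 11.13 FPKM with IL-2 and at 14.84, 12.89 and 13.48 FPKM without, also apart, with a log2 fold change of 0.40 (SE 0.11, adjusted p = 0.0082). Neither Pmaip1 nor Bad reached the 2-fold limit. Exons of 5 members overlap an annotated gene in GENCODE. The study's methods name a stranded library kit, without naming this CTL set. Whether the authors counted reads by strand is not given in the sources used here. For Bid the overlapping gene is Bcl2l13 on the other strand, which was at 11.49, 12.18 and 11.80 FPKM with IL-2 and at 11.83, 11.10 and 10.57 FPKM without, so its groups overlapped. The others are Bcl2, Bak1 and Bad, with an overlap on the other strand, and Bax, with one on the same strand. Gpr137, which overlaps Bad, was at 2.90, 3.73 and 3.00 FPKM with IL-2 and at 3.86, 3.91 and 5.71 FPKM without. Its groups were apart and it was higher without IL-2, as Bad was. A part of such overlaps in the levels of the members was not tested.

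**Figure D2:**
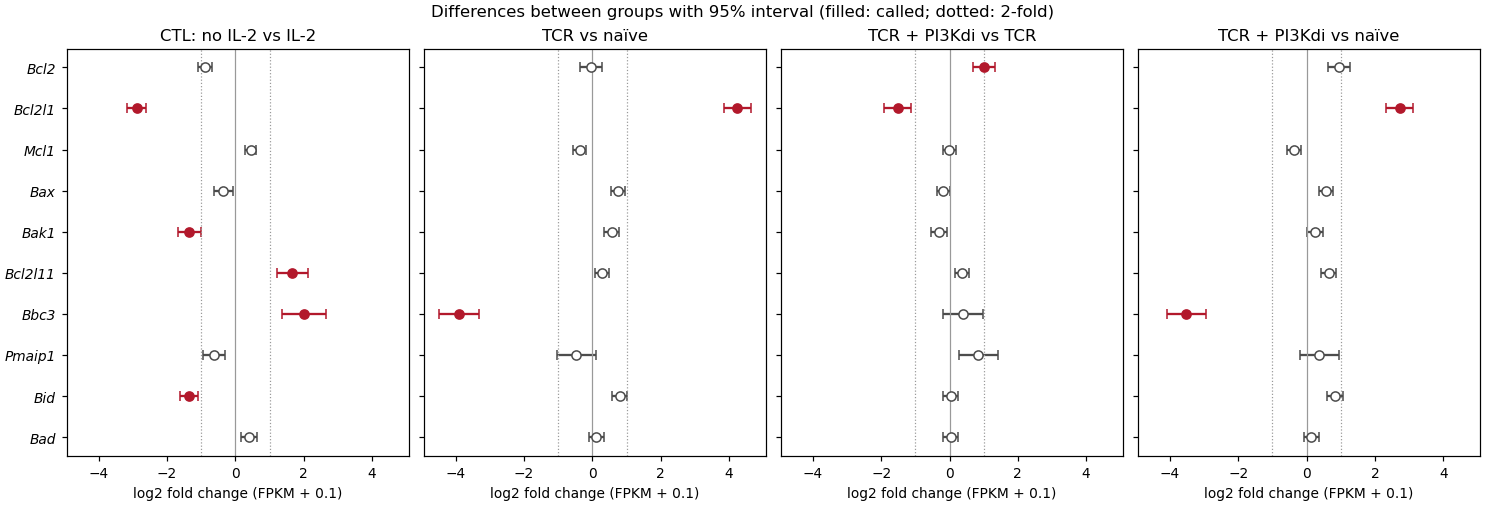
Log2 fold change of each member (x axis, on log2 of FPKM + 0.1) with its 95% interval in the 4 comparisons, from limma. Filled points were called and dotted lines mark 2-fold. Bcl2l1 is on opposite sides of 0 in IL-2 withdrawal, at -2.89, and in TCR activation, at 4.23, and so is Bbc3, at 2.01 and -3.90.

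The balance of the family was described by sums of FPKM, with no test. The 3 anti-apoptotic genes summed to 218.84, 225.88 and 221.58 FPKM with IL-2 and to 141.01, 140.15 and 139.67 FPKM without. The 7 pro-apoptotic genes summed to 359.04, 433.01 and 395.97 FPKM with IL-2 and to 295.44, 288.71 and 266.10 FPKM without. Both sums were thus lower without IL-2. The larger part of the second sum was Bax and Bak1, which together had a mean of 332 FPKM with IL-2 and 192 FPKM without. The ratio of anti- to pro-apoptotic FPKM was 0.564 ± 0.044 (SD, n = 3) with IL-2 and 0.496 ± 0.025 (SD, n = 3) without, and the groups overlapped. With geometric means in place of sums, which give each gene the same weight, the ratio was 2.96 with IL-2 and 1.31 without.

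The BH3-only genes were also summed alone. They summed to 66.07, 65.72 and 59.15 FPKM with IL-2 and to 86.87, 92.10 and 96.53 FPKM without. Set against the anti-apoptotic sum, this was a ratio of 0.302, 0.291 and 0.267 with IL-2 and of 0.616, 0.657 and 0.691 without. The ratio of Bcl2l11 to Bcl2 was 0.138, 0.157 and 0.163 with IL-2 and 0.706, 0.783 and 1.36 without. In both ratios all libraries without IL-2 were above all libraries with it. This follows from the parts of each ratio, which were apart in opposite directions, so the ratios only restate them.

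The make-up of the anti-apoptotic sum also differed. With IL-2, the mean share was 40.7% for Bcl2l1, 31.4% for Mcl1 and 28.0% for Bcl2. Without IL-2 it was 8.65% for Bcl2l1, 67.8% for Mcl1 and 23.6% for Bcl2. The SD between libraries was at most 4.33 percentage points for these shares.

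**Figure D3:**
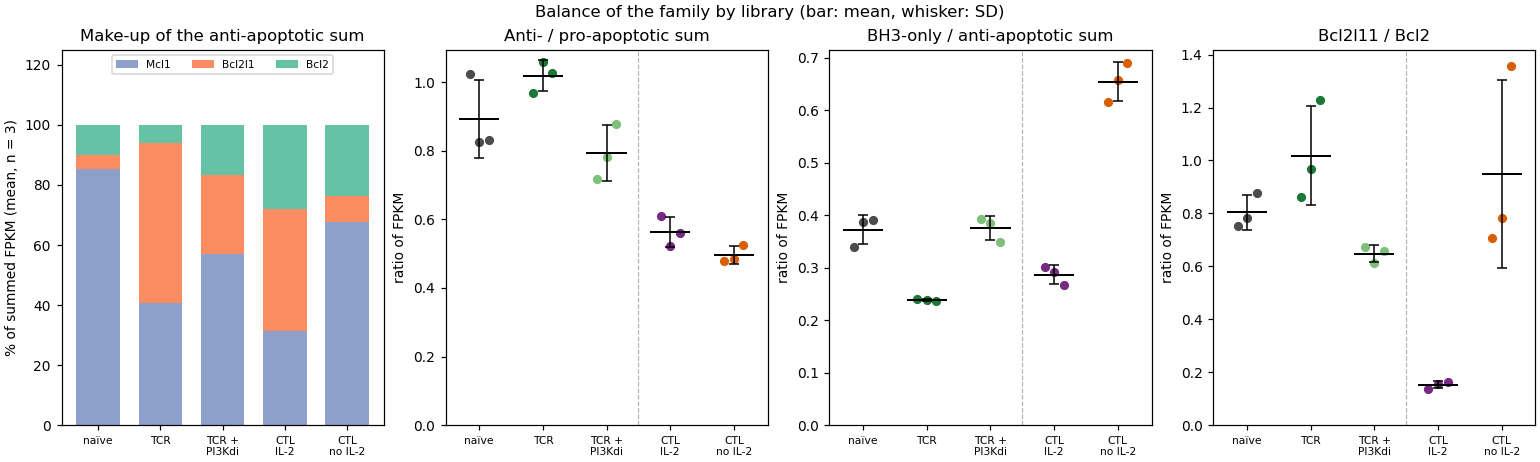
From left to right: mean share of each anti-apoptotic gene in their summed FPKM (stacked bars from 0, n = 3), and 3 ratios of FPKM in each library (points, with the mean as a bar and the SD as a whisker). The dashed lines separate the 2 tables. The ratio of BH3-only to anti-apoptotic FPKM was 0.616 to 0.691 in CTL without IL-2 and 0.267 to 0.302 in CTL with IL-2.

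In the CD8+ set, 1 member, Bcl2l1, was called higher and 1, Bbc3, lower in TCR activated than in naïve cells. The naïve cells came ex vivo, without culture, peptide, IL-2 or IL-12. In comparisons with naïve cells, the effects of these cannot be told apart. Over all genes 25.0% were called higher and 23.7% lower. An adjusted p under 0.05 was reached by 7 members and by 80.8% of all genes. The comparisons of TCR activated with naïve, PI3Kdi with TCR activated and PI3Kdi with naïve cells share libraries, so they are not independent of each other. Bcl2l1 was at 6.37, 6.02 and 6.85 FPKM in naïve cells and at 107.62, 116.15 and 146.39 FPKM in TCR activated cells. The groups were far apart, and Bcl2l1 rose by 4.23 on the log2 scale (SE 0.18, adjusted p = 2.2e-09). Bbc3 was at 13.26, 12.85 and 14.92 FPKM in naïve cells and at 1.14, 0.76 and 0.63 FPKM in TCR activated cells. Bbc3 thus fell by 3.90 (SE 0.26, adjusted p = 8.8e-08) with no overlap.

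The other anti-apoptotic genes differed less after TCR activation. Mcl1 was at 135.12, 114.32 and 117.49 FPKM in naïve cells and at 89.93, 102.49 and 90.84 FPKM in TCR activated cells. Its groups were apart, with a log2 fold change of -0.37 (SE 0.09, adjusted p = 0.0023). Bcl2 was at 15.38, 14 and 13.61 FPKM in naïve cells and at 16.94, 14.38 and 10.79 FPKM in TCR activated cells. The Bcl2 groups overlapped, and its log2 fold change of -0.05 had a 95% interval from -0.37 to 0.27.

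Both effectors and Bid were at higher levels in TCR activated cells without reaching the 2-fold limit. Bax was at 63.21, 70.75 and 65.67 FPKM in naïve and at 102.26, 108.24 and 124.98 FPKM in TCR activated cells, with a log2 fold change of 0.74 (SE 0.09, adjusted p = 1.2e-05). Bak1 had a log2 fold change of 0.56 (SE 0.10, adjusted p = 0.00038) and Bid one of 0.79 (SE 0.10, adjusted p = 2e-05). For all of these genes the TCR activated libraries were above the naïve ones. Bcl2l11 was at 11.55, 10.96 and 11.95 FPKM in naïve and at 14.61, 13.90 and 13.24 FPKM in TCR activated cells, apart but with a log2 fold change of only 0.27 (SE 0.10, adjusted p = 0.019). Pmaip1 and Bad had an adjusted p of 0.11 and 0.31.

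PI3Kdi raised 1 member, Bcl2, and lowered 1, Bcl2l1, relative to TCR activation alone. Over all genes 3.04% were called higher and 2.10% lower, and an adjusted p under 0.05 was reached by 4 members and by 17.5% of all genes. Bcl2 was at 26.21, 27.43 and 29.72 FPKM with PI3Kdi, above the 10.79 to 16.94 FPKM of TCR activated cells. Its log2 fold change of 1.00 (SE 0.14, adjusted p = 0.00091) sat on the 2-fold limit, and without TCR activated replicate 3 or without PI3Kdi replicate 3 it was 0.83 or 0.95 and no longer called. Bcl2l1 was at 34.81, 38.00 and 59.01 FPKM with PI3Kdi, below every TCR activated library. Bcl2l1 fell by 1.51 on the log2 scale (SE 0.18, adjusted p = 0.00026). It stayed above the naïve libraries, and against naïve cells it rose by 2.72 (SE 0.18, adjusted p = 9.6e-08).

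The other members with an adjusted p under 0.05 for PI3Kdi were BH3-only genes. Bcl2l11 was at 17.63, 16.81 and 19.60 FPKM with PI3Kdi, above every TCR activated library, with a log2 fold change of 0.37 (SE 0.10, adjusted p = 0.023). Pmaip1 was at 3.53, 4.22 and 3.64 FPKM with PI3Kdi and at 1.69, 1.58 and 3.27 FPKM in TCR activated cells. Its groups were apart, with a log2 fold change of 0.84 (SE 0.26, adjusted p = 0.044), or 1.16 and called without TCR activated replicate 3. With the replicate number as a block the adjusted p of Pmaip1 was 0.065. Mcl1 was at 89.55, 96.06 and 96.99 FPKM with PI3Kdi, within the range of the TCR activated libraries except for 1 library just below it, and its log2 fold change of 0.00 had a 95% interval from -0.20 to 0.19. Bbc3 stayed low with PI3Kdi, at 0.74, 1.10 and 1.62 FPKM, and overlapped the TCR activated libraries, with a 95% interval for the log2 fold change from -0.20 to 0.97.

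Against naïve cells, activation with PI3Kdi raised 1 member, Bcl2l1, and lowered 1, Bbc3, beside 23.6% of all genes called higher and 21.3% called lower. An adjusted p under 0.05 was reached by 8 members and by 79.1% of all genes. Bbc3 fell by 3.52 (SE 0.26, adjusted p = 2.6e-07). Bcl2 had a log2 fold change of 0.95 (SE 0.14, adjusted p = 9.2e-05), just short of the limit, and was called without naïve replicate 1, at 1.00.

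In order of level, Bcl2l1 was lowest in naïve cells, intermediate with PI3Kdi and highest in TCR activated cells, with neighbouring groups apart. For Bcl2l11 the order was naïve, TCR activated and PI3Kdi cells, again without overlap. The order for Bcl2 was TCR activated, naïve and PI3Kdi cells, of which the first 2 overlapped, and for Mcl1 it was PI3Kdi, TCR activated and naïve cells, of which the first 2 overlapped. Set beside these, and with the separate normalisation in mind, CTL with IL-2 had the highest Bcl2, at 56.46 to 69.39 FPKM, and CTL without IL-2 the highest Bcl2l11 and Bbc3 of the 5 groups. CTL without IL-2 were listed with Bcl2l1 at 10.66 to 14.06 FPKM and naïve cells at 6.02 to 6.85 FPKM.

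The anti-apoptotic sum in naïve cells was 85.5% Mcl1 (mean, n = 3). In TCR activated cells 53% of it was Bcl2l1 and 40.8% Mcl1, and with PI3Kdi 26.1% was Bcl2l1, 57.1% Mcl1 and 16.8% Bcl2. The ratio of anti- to pro-apoptotic FPKM was 0.893 ± 0.113 in naïve, 1.02 ± 0.046 in TCR activated and 0.793 ± 0.081 in PI3Kdi cells (SD, n = 3). With geometric means it was 1.5, 4.46 and 3.50, which puts PI3Kdi above naïve cells instead of below them. The ratio of BH3-only to anti-apoptotic FPKM was 0.237 to 0.241 in TCR activated cells, below the 0.340 to 0.390 of naïve cells and the 0.349 to 0.393 of PI3Kdi cells, which overlapped.

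Among 15 other genes of the BCL2 family, 10 were listed for CTL. Of these 10, 4 were called higher and 1 lower without IL-2, beside 14.3% and 13.9% of all genes. Bmf, a BH3-only gene, was at 1.39, 0.98 and 0.30 FPKM with IL-2 and at 5.35, 4.55 and 4.69 FPKM without, a rise of 2.52 on the log2 scale (adjusted p = 0.00036). Bnip3 and Bnip3l, which act in mitophagy, moved in opposite directions. Bnip3 fell by 3.03 (adjusted p = 7.8e-08), from 122.05, 108.89 and 120.01 FPKM to 14.68, 15.82 and 12.48 FPKM, and Bnip3l rose by 1.12 (adjusted p = 1.2e-06). Bcl2a1b and Bcl2a1d rose by 1.01 and 1.02 (adjusted p = 0.0003 and 0.0002), just above the 2-fold limit. Both belong to a cluster of near-identical anti-apoptotic genes whose reads may be divided between copies. The median over these 10 genes was 0.96.

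All 21 upstream regulators and IL-2 or STAT5 targets were listed for CTL. Of these, 3 were called higher and 9 lower without IL-2, beside 14.3% and 13.9% of all genes. The median log2 fold change of the 21 was -0.80. Cish, a STAT5 target that serves as a check on IL-2 signalling, was at 199.40, 242.25 and 217.81 FPKM with IL-2 and at 20.69, 21.48 and 16.27 FPKM without, a fall of 3.50 (adjusted p = 7.9e-08). Il2ra, Socs2, the kinase genes Pim1 and Pim3, and Myc fell as well, with log2 fold changes of -2.37 for Il2ra, -1.59 for Socs2, -1.57 for Pim1, -2.37 for Pim3 and -2.31 for Myc (highest adjusted p = 2.2e-05). Foxo1 was at 14.78, 14.20 and 17.01 FPKM with IL-2 and at 33.77, 33.33 and 39.19 FPKM without, and rose by 1.20 (adjusted p = 6e-06). Il7r, the receptor chain for IL-7, rose by 3.23 (adjusted p = 3.4e-06), and Ddit3, a stress-induced transcription factor gene, by 1.37 (adjusted p = 2.4e-05). Trp53 was at 111.74, 143.44 and 142.16 FPKM with IL-2 and at 96.50, 95.41 and 94.05 FPKM without, with a log2 fold change of -0.46 (adjusted p = 0.0024).

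Downstream of the family, 2 of 18 apoptosome and caspase genes were called higher and 1 lower without IL-2, beside 14.3% and 13.9% of all genes, with a median of -0.27. Cycs, the cytochrome c gene, fell by 2.26 (adjusted p = 3.9e-07). Birc2, an inhibitor of apoptosis gene, rose by 1.21 (adjusted p = 3.9e-06) and Casp6 by 1.00 (adjusted p = 0.0013), which is on the 2-fold limit. Of 9 death receptor genes, Fas rose by 1.13 (adjusted p = 0.00062) and none was called lower. Among 9 p53 targets listed for CTL, 2 were called higher and 3 lower, beside the same 14.3% and 13.9% of all genes. Trp53inp1 rose by 2.20 (adjusted p = 2.8e-05) and Sesn1 by 1.13 (adjusted p = 0.00044), while Cdkn1a fell by 1.51 (adjusted p = 0.00016), Sesn2 fell by 1.41 (adjusted p = 1.6e-05) and Aen fell by 1.02 (adjusted p = 4.6e-05). Of 12 genes for MCL1 turnover and partners of the family, Dynll1, whose product can bind BIM, fell by 1.07 (adjusted p = 4.4e-06) and the rest were not called.

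**Figure D4:**
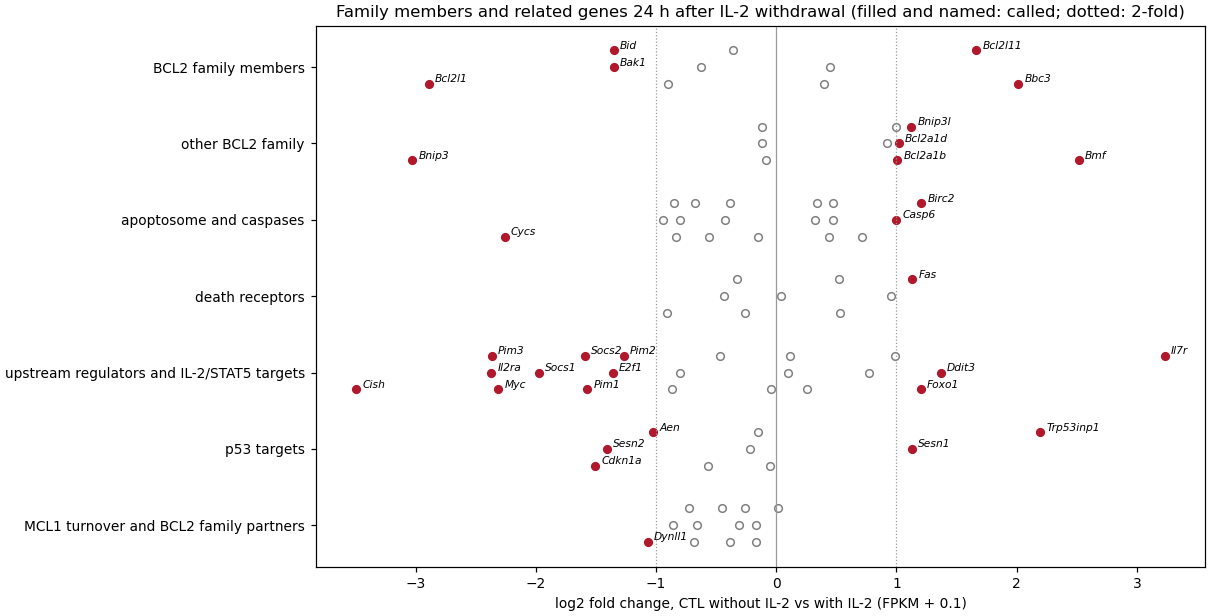
Log2 fold change without IL-2 against with IL-2 in CTL (x axis, on log2 of FPKM + 0.1) for the 10 members and the genes of 6 related lists (rows), 1 point a gene. Filled and named points were called and dotted lines mark 2-fold. Cish, at -3.50, lies at the left end and Il7r, at 3.23, at the right end.

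The genes whose pattern was most like that of each of 4 members were found by Pearson's r over the 15 libraries, with log2(FPKM + 0.1) centred within each table, among 9625 genes. The libraries fall into 5 groups, so r mostly follows the group means, and it is given as a description. For Bcl2l1 they were Zcchc10, Polr2c and Mrpl49, each with r of 0.99. For Mcl1 they were Xiap (0.97), Gm13157 (0.96) and Rabgap1 (0.96), for Bcl2l11 Ncf1 (0.98), Bach2 (0.97) and Idh3b (0.96), and for Bcl2 Chmp4b, Gm12250 and Htt, each with r of 0.90. Between members, r was largest in size at -0.92 for Bcl2l1 with Bbc3, 0.90 for Bcl2l1 with Bax and -0.90 for Mcl1 with Bid. Next came 0.88 for Bcl2l1 with Bid and -0.88 for Bcl2l1 with Mcl1.

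Replicate libraries of a group had a Pearson's r across genes of at least 0.983, and read totals per library are not given in the sources used here, so the depth is unknown. Markers of CD8 T cells (5 of 6 listed, Cd8a, Cd8b1 and the CD3 chains) summed to between 636.75 and 3482.20 FPKM in every library. Naïve markers (4 of 4) summed to 91.22 to 127.41 FPKM in CTL with IL-2 and to 667.09 to 743.49 FPKM without, and effector markers (4 of 4) to 9606.30 to 12543 FPKM and 424.88 to 688.98 FPKM, so the members were measured in cells whose state differed widely. Among markers of other cells in CTL, Cd4 was at 0.05 to 0.39 FPKM with IL-2 and at 0.92 to 1.92 FPKM without, Cd79b, the only B cell marker of 5 listed, at 2.74 to 6.30 FPKM and 10.80 to 20.64 FPKM, and the myeloid markers (2 of 5) summed to 33.61 to 57.26 FPKM and 10.49 to 15.24 FPKM. These 2 markers moved in opposite directions: Fcer1g, at means of 47.0 FPKM with IL-2 and 9.48 FPKM without, fell by 2.30 on the log2 scale (adjusted p = 1.9e-05), and Itgam, at 0.293 and 4.09 FPKM, rose by 3.44 (adjusted p = 1e-06). The dendritic cell markers (3 of 4) summed to 21.06 to 28.69 FPKM and 25.48 to 34.97 FPKM. Within this sum Itgax, at means of 0.31 FPKM with IL-2 and 4.55 FPKM without, rose by 3.51 (adjusted p = 1.2e-06), while Cd74 and H2-Ab1 were not called. The only NK marker of 2 listed was at 1.20 to 1.88 FPKM and 2.17 to 3.41 FPKM. In the CD8+ set, 4 of 5 B cell markers summed to 20.89 to 26.29 FPKM in naïve, 4.63 to 7.12 FPKM in TCR activated and 3.30 to 4.58 FPKM in PI3Kdi cells, 2 of 4 dendritic cell markers to 6.31 to 24.66 FPKM, 12.24 to 25.77 FPKM and 3.10 to 4.61 FPKM, and the 1 myeloid marker of 5 was at or below 0.30 FPKM. The part of these markers in the results for the members was not tested. No red cell marker was listed in either table, nor Cd4 or an NK marker in the CD8+ set.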

How the data were processed

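RNA sequencing of mouse CD8+ T cells and CTL was analysed. The authors deposited FPKM rounded to 2 decimals. Per the study's methods, reads were aligned to mm10 with STAR (2.5.2b), counted with Subread (1.5.1), filtered with filterByExpr, normalised by the TMM method and scaled by the exon length of each gene, counting overlapping exons once. The CTL table was assumed to have been made in the same way. Blank cells (1039, CD8+ table) were read as 0. The treatment labels of CTL replicates 2 and 3 with IL-2 name other interleukins, and these libraries were grouped by title.

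Values of log2(FPKM + 0.1) were fitted by limma (3.58.1) in R (4.3.3) with an intensity trend, in 1 fit for each table over all of its groups, in place of the limma-voom analysis of the methods, which needs counts. Benjamini-Hochberg adjustment was made across every gene in a table, and fold changes are on the log2(FPKM + 0.1) scale, which understates changes of low genes. The fits were tested on simulated data. Python (3.11.15) was used for the rest, with matplotlib (3.10.9) for plots.

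Same-numbered libraries deviated together between TCR activated and PI3Kdi cells (r of 0.27, 0.20 and 0.51 across 10072 genes), whose pools were divided between conditions. They also did so between the CTL groups (0.12, 0.17 and 0.26 across 10263 genes). The main fits used group means only and left out this pairing, which entered only through the replicate block, an alternative. The members and gene lists were chosen with earlier results of these data known. All 10 members are named. Genes of other lists are named where called, at most 4 for each direction with the largest changes. Il2ra, Cish and Socs2 serve as checks of IL-2 signalling, and Pim1 and Trp53 were picked with their values seen. Alternatives were other pseudocounts, a filter on low values, median scaling, the replicate block, no trend, other fold limits, fits of 2 groups alone and leaving out each library. Protein sequences were not used here.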

Additional observations from a re-analysis of the deposited data

How the results depend on the processing

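The 5 members called after IL-2 withdrawal were called under all 14 alternatives, each in the same direction. Of these alternatives, the looser fold limits keep the same fit and can only add calls. A fold limit of 1.5 gave 5 members called lower and 5657 genes, and no fold limit gave 4 higher, 6 lower and 8056 genes. For TCR activation a fold limit of 1.5 gave 3 members higher, beside 3806 of 11262 genes, and no limit gave 5 higher, 2 lower and 9096 genes. For PI3Kdi against TCR activation, the call of Bcl2 was lost with a pseudocount of 1 (0 members higher, 311 genes) and with median scaling (0 higher). A fold limit of 1.5 gave 2 higher and 1120 genes, no limit gave 3 higher and 1975 genes, and leaving out each library in turn gave 0 to 1 members higher. For PI3Kdi against naïve cells, median scaling gave 2 members higher, beside 2875 of 11262 genes, a fold limit of 1.5 gave 4, beside 3648 genes, no limit gave 6 higher, 2 lower and 8906 genes, and leaving out each library gave 1 to 2 higher. With a pseudocount of 1, genes called higher after IL-2 withdrawal went from 1605 to 1053. The other counts of members, and of genes called in both directions together, stayed within 1.5 times.

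Geometric means moved the anti- to pro-apoptotic ratio to 1.5 in naïve, 4.46 in TCR activated, 3.50 in PI3Kdi cells, 2.96 in CTL with IL-2 and 1.31 without. Median scaling raised log2 fold changes of TCR activation by 0.12, and turned that of Bcl2, which was not called, to 0.07. Of 590 member values under alternatives, which include the looser fold limits, 4 lost and 29 gained a call. None that was called turned direction. With the replicate number as a block, 3168 genes were called for IL-2 withdrawal and 591 for PI3Kdi, and no member's call changed. Between naïve and activated cells, same-numbered libraries did not deviate together (r from -0.18 to 0.23), and the block gave 5495 genes for TCR activation and 5071 for PI3Kdi against naïve cells.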

Other observations

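In the CD8+ set, the other BCL2 family genes (9 of 15 listed) included 5 called higher and 2 lower in TCR activated than in naïve cells, beside 25.0% and 23.7% of all genes. Bmf was at 6.87, 6.34 and 4.56 FPKM in naïve and at 0.38, 0.22 and 0.25 FPKM in TCR activated cells, and it fell by 3.98 on the log2 scale (adjusted p = 1.9e-08). Bcl2a1d, one of the near-identical anti-apoptotic A1 copies, was at 0.19, 0.75 and 0.51 FPKM in naïve cells, at 5.55, 9.65 and 14.81 FPKM in TCR activated cells and at 0.46, 0.88 and 1.17 FPKM with PI3Kdi. It fell by 3.40 with PI3Kdi relative to TCR activation alone (adjusted p = 0.00051), and Bcl2a1b fell by 1.18 (adjusted p = 0.029). Bnip3, which acts in mitophagy, spread widely among TCR activated libraries, at 21.93, 13.47 and 2.47 FPKM, against 2.11, 2.13 and 1.49 FPKM in naïve cells.

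Of 18 apoptosome and caspase genes, 6 were called higher and 2 lower after TCR activation, beside 25.0% and 23.7% of all genes. Birc5, which also acts in cell division, was at 0.29, 0.11 and 0.12 FPKM in naïve and at 46.26, 37.93 and 33.07 FPKM in TCR activated cells, and it rose by 7.21 on the log2 scale (adjusted p = 2.4e-10). Of 9 death receptor genes 1 was called lower with PI3Kdi and 0 higher, beside 2.10% and 3.04% of all genes. Fasl, the ligand of FAS, was at 1.38, 0.96 and 0.69 FPKM in TCR activated cells and at 0.04, 0.08 and 0.04 FPKM with PI3Kdi, and had no value in naïve cells.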
